A study of Homo sapiens with 8 samples.

Results

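The genes described here are 7 genes named as insulin-like growth factor (IGF) binding proteins, IGFBP1 to IGFBP7, and the 3 receptor genes IGF1R, IGF2R and INSR. They were taken by name, 10 of the 38010 genes in the count table, and all 10 were found by symbol. RNA was sequenced from confluent cultures of Ea.hy926, a human hybrid line obtained by fusing umbilical vein endothelial cells with the lung carcinoma line A549. Of 2 groups, the parental cells (labelled Eahy) served as the reference, and the other group was an Ea.hy926 line labelled Rho0 and deficient in oxidative phosphorylation (OXPHOS). Rho0 is the usual name for cells that have lost their mitochondrial DNA. Each group held 4 libraries described as biological replicates, and neither label gives a drug treatment or a time point other than confluence. How the Rho0 line was derived, and whether it is 1 clone, was not given in the sources used here, so a difference between lines cannot be told apart from a difference between clones. Whether the replicates came from separate passages is not stated either, so the p-values measure the spread between these libraries.

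IGF1 and IGF2 are secreted growth factors that act through IGF1R, a receptor tyrosine kinase. INSR, the insulin receptor, is its closest relative, binds insulin and, in its short isoform, IGF2. IGF2R is unrelated to both in structure: it is the large mannose 6-phosphate receptor, which carries newly made enzymes to lysosomes and removes IGF2 from the cell surface without a kinase signal. The binding proteins are secreted, hold IGFs in the medium and are cut by dedicated proteases. IGFBP7 binds IGFs only weakly and is abundant in vascular endothelium.

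In Rho0 cells, IGFBP3 went from the edge of detection to a low but clear level, IGFBP7 about doubled, and IGF2R and IGF1R rose by 1.84-fold and 1.52-fold. IGFBP6 fell to 0.714 of its parental level. IGFBP4, the most abundant binding protein transcript in both lines, and INSR and IGFBP2 did not pass the test, and IGFBP1 and IGFBP5 were at or near 0 counts. In bulk RNA, fewer cells of a type and less RNA per cell cannot be told apart.

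The parental libraries held 23366190 to 28599386 estimated counts and the Rho0 libraries 11721708 to 37203507, so that 1 count was worth 0.0225 to 0.0753 CPM, the count scaled to a common library size with edgeR's TMM factors. As a check of the labels, the 13 mitochondrially encoded mRNAs made up 16% to 21.4% of the parental libraries and 0.00296% to 0.149% of the Rho0 libraries. The endothelial markers PECAM1, CDH5 and VWF were high in both lines, while CLDN5 was nearly absent (0.496 and 0.147 CPM) and not tested. The summed level of 12 endothelial markers was 6967 to 7885 CPM in parental and 7057 to 8140 CPM in Rho0 libraries. Within that sum, 4 of 11 tested markers were called higher, among them KDR (13.8 to 131 CPM) and PECAM1 (1.95-fold), and 3 lower, among them CDH5 (0.602 of its parental level). Of all genes tested, 29.0% were called higher and 25.4% lower. The summed level of 10 epithelial markers was lower in Rho0, 1311 to 2099 CPM against 2622 to 2896 CPM. It rested on KRT7, KRT8 and KRT18, of which KRT8 and KRT18 were called lower and KRT7 was not called (912 and 830 CPM). KRT19, EPCAM, CDH1 and ESRP1 stayed near or below 1 CPM. Of 8 tested epithelial markers, 4 were called lower and 2 higher, MUC1 (11.1 and 16.1 CPM) and EPCAM, the latter past the low-count filter through its Rho0 libraries. Summed fibroblast and mural markers were 254 to 282 CPM in parental and 110 to 166 CPM in Rho0 libraries, most of it RGS5, while ACTA2 rose 3.54-fold to 24.8 CPM. DCN, below 1 CPM in both lines, was called higher, but it passed the filter on low counts only through its Rho0 libraries. The 7 blood cell markers summed to 1.75 to 2.47 and 5.53 to 6.69 CPM, with CD3E and HBB at 0. These markers moved between the lines together with the genes below, and their part in the results was not tested.

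Of the 10 genes, 8 had enough counts for the test, edgeR's quasi-likelihood F-test with Benjamini-Hochberg adjustment over 15184 genes. At an adjusted p of 0.05, 4 were called higher in Rho0 (IGFBP3, IGFBP7, IGF1R and IGF2R), 1 lower (IGFBP6) and 3 were not called. Across all genes tested 29.0% were called higher and 25.4% lower, 54.4% in either direction, so 5 calls among 8 genes is near the share of the whole table. IGFBP3 passed the filter on low counts only through its Rho0 libraries and had to differ. The libraries of the lines did not overlap in CPM for those same 5 genes, against 50.9% of all genes tested. The median log2 fold change was 0.41 over the 8 genes and 0.05 over all genes tested. When libraries were scaled by their totals alone, 8583 genes were called higher and 1540 lower in place of 4399 and 3858, and the calls among the members became 6 higher and 0 lower.

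**Figure D1:**
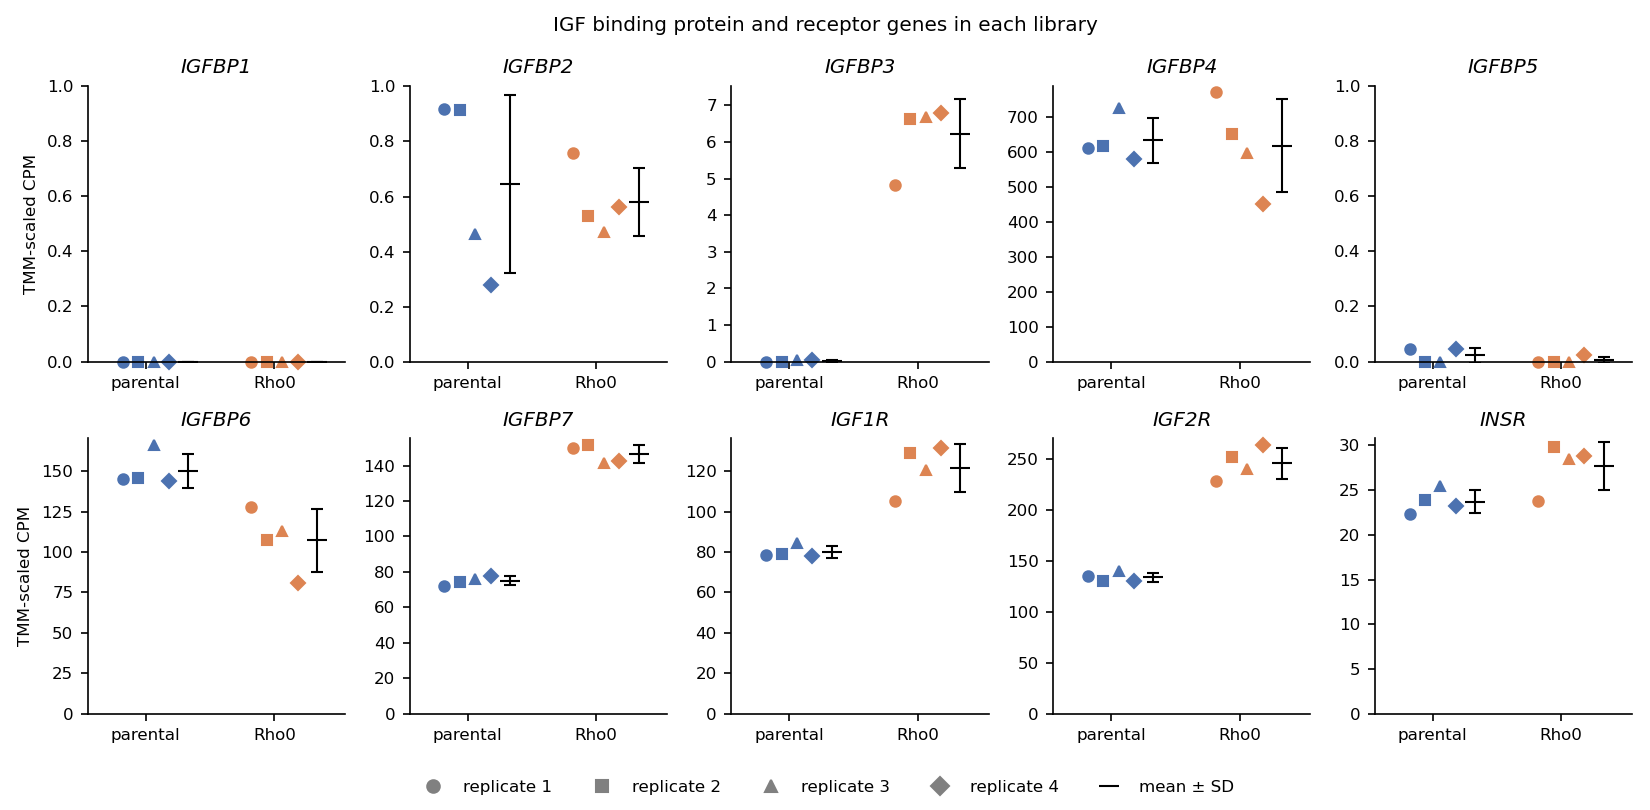
TMM-scaled CPM of each of the 10 genes (vertical axis, linear, from 0, a separate scale for each gene) in the 4 parental and 4 Rho0 libraries, with the replicate number as the symbol and the mean ± SD beside the points. The Rho0 libraries lie above all parental libraries for IGFBP3, IGFBP7, IGF1R and IGF2R and below them for IGFBP6, and the lines overlap for IGFBP2, IGFBP4 and INSR.

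IGFBP3, the main IGF carrier of serum, is ENSG00000146674 at chr7:45912245-45921874 on the minus strand (GRCh38, GENCODE 29). Parental replicates 1 to 4 held 0, 0, 1 and 1 counts, which is 0, 0, 0.0516 and 0.0465 CPM. Those of Rho0 held 172, 88, 156 and 301 counts, or 4.83, 6.63, 6.69 and 6.78 CPM. Every Rho0 library was therefore far above every parental library, with replicate 1 the lowest of the 4. Pooled over libraries, 717 counts against 2 gave a ratio of 270 with an exact 95% interval of 74.5 to 2234, which covers counting error only. The fitted log2 fold change was 7.81 (SE 0.37, edgeR adjusted p = 4.6e-08). It depends on how counts near 0 are treated, and was 2.84 on the authors' deposited log2 scale. IGFBP1 lies 18576 bases from IGFBP3 on the opposite strand (chr7:45888357-45893668, ENSG00000146678) and encodes a binding protein made mainly by liver and decidua. It had 0 counts in all 8 libraries, under a limit that 3 counts would set at 0.119 to 0.155 CPM in parental and 0.0676 to 0.226 CPM in Rho0 libraries. The rise at IGFBP3 was thus not matched by detectable reads from its neighbour.

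IGFBP7 and IGFBP6 moved in opposite directions. IGFBP7 (ENSG00000163453, chr4:57030773-57110385, minus strand) measured 72.1, 74.5, 76.1 and 77.6 CPM in the parental libraries and 150, 151, 141 and 143 CPM in the Rho0 libraries. The spread within each line was small beside the gap between them. Means were 75.1 ± 2.37 and 146 ± 5.10 CPM (SD, n = 4 each), a 1.95-fold rise (log2 fold change 0.96 with SE 0.06, adjusted p = 4.1e-07 by edgeR). POLR2B, a subunit gene of RNA polymerase II, overlaps IGFBP7 on the other strand. The library kit keeps strand, but whether the counting used it was not given in the sources used here, so reads of the shared stretch are uncertain.

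IGFBP6 (ENSG00000167779, chr12:53097436-53102345, plus strand) encodes the binding protein that prefers IGF2 to IGF1. It measured 145, 146, 166 and 144 CPM in the parental libraries and 128, 107, 113 and 81.1 CPM in the Rho0 libraries. The highest Rho0 library was below the lowest parental one, and the Rho0 libraries were spread more widely. Means were 150 ± 10.6 and 107 ± 19.5 CPM (SD, n = 4 each), with a log2 fold change of -0.49 (SE 0.12) and an edgeR adjusted p of 0.0066. With library totals alone the value was -0.10 and was no longer called (adjusted p = 0.42), while the median of all genes stood at 0.44 in that scaling.

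IGFBP4 (ENSG00000141753, chr17:40443461-40457731, plus strand), a binding protein that restrains IGF action until the protease PAPPA cuts it, measured 611, 616, 725 and 580 CPM in parental libraries. The Rho0 values were 772, 651, 597 and 451 CPM. Replicates 1 and 4 of Rho0 were the highest and the lowest of all 8 libraries, and the parental range lay inside the Rho0 range. Means were 633 ± 63.6 and 618 ± 133 CPM (SD, n = 4 each), with a log2 fold change of -0.03 (SE 0.15) and an edgeR adjusted p of 0.86. The direction turned to 0.36 and was called (adjusted p = 0.024) with library totals alone, still below the median of all genes in that scaling.

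IGFBP2 and IGFBP5 are neighbours on chromosome 2, 7668 bases apart and read from opposite strands. IGFBP2 (ENSG00000115457, chr2:216632828-216664436), a binding protein common in fetal and tumour cells, measured 0.918, 0.915, 0.464 and 0.279 CPM in parental and 0.758, 0.527, 0.472 and 0.564 CPM in Rho0 libraries. The parental libraries spanned the whole range of the Rho0 libraries, and the log2 fold change was -0.14 (SE 0.36, edgeR adjusted p = 0.77). IGFBP5 (ENSG00000115461, chr2:216672105-216695525), which binds to extracellular matrix, had 1 count in parental replicates 1 and 4, 1 count in Rho0 replicate 4 and 0 elsewhere. Both lines were at or under the floor of 3 counts per library, and no fold was computed.

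The receptors differed in how far they moved. IGF2R (ENSG00000197081, chr6:159969099-160113507, plus strand) measured 135, 130, 140 and 131 CPM in the parental libraries and 229, 252, 240 and 264 CPM in the Rho0 libraries. All 4 Rho0 values were well above the parental ones. Means were 134 ± 4.50 and 246 ± 15.1 CPM (SD, n = 4 each), with a log2 fold change of 0.88 (SE 0.07) and an edgeR adjusted p of 1.7e-06. A processed pseudogene, CHP1P2, lies inside IGF2R on the same strand and AIRN on the other.

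IGF1R (ENSG00000140443, chr15:98648539-98964530, plus strand), the receptor that carries the IGF growth signal, measured 78.6, 79.2, 84.4 and 78.1 CPM in the parental libraries. Its Rho0 values were 105, 129, 121 and 132 CPM. Rho0 replicate 1 was the lowest of its line and still above every parental library. Means were 80.1 ± 2.91 and 122 ± 11.8 CPM (SD, n = 4 each), with a log2 fold change of 0.60 (SE 0.08) and an edgeR adjusted p of 1.0e-04. GENCODE 29 places 2 antisense genes over IGF1R.

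INSR (ENSG00000171105, chr19:7112255-7294034, minus strand) measured 22.3, 23.9, 25.5 and 23.2 CPM in parental and 23.7, 29.8, 28.4 and 28.8 CPM in Rho0 libraries. Rho0 replicates 2, 3 and 4 exceeded every parental library, and Rho0 replicate 1 lay within the parental range. Means were 23.7 ± 1.33 and 27.7 ± 2.69 CPM (SD, n = 4 each), and the log2 fold change of 0.22 (SE 0.09) missed the threshold (edgeR adjusted p = 0.055). Without Rho0 replicate 1 it was 0.26 and was called (adjusted p = 0.0093).

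Ratios of 2 genes within a library do not depend on how libraries are scaled. INSR counts were 0.284 to 0.302 of the IGF1R counts in parental and 0.219 to 0.235 in Rho0 libraries. IGF2R counts were 1.65 to 1.72 times those of IGF1R in parental and 1.96 to 2.18 times in Rho0 libraries. Neither ratio overlapped between the lines, so the 3 receptor transcripts changed by unequal amounts. Among the binding proteins, IGFBP7 counts were 0.458 to 0.540 of the IGFBP6 counts in parental libraries and 1.17 to 1.76 times those counts in Rho0 libraries. IGFBP4 counts were 4.04 to 4.37 times those of IGFBP6 in parental and 5.29 to 6.07 times in Rho0 libraries. The ratio of IGFBP7 to IGFBP6 counts was thus below 1 in every parental and above 1 in every Rho0 library, as counts and not per length.

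**Figure D2:**
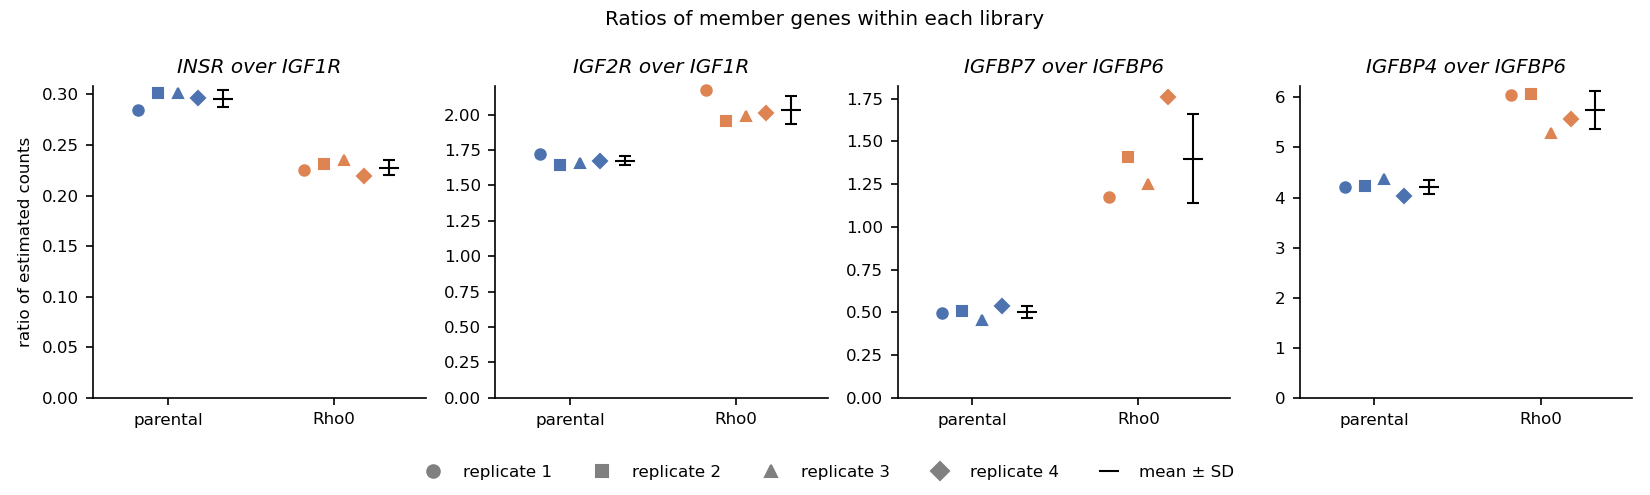
Ratio of estimated counts of 2 genes within each library (vertical axis, linear, from 0), for the 4 parental and 4 Rho0 libraries with mean ± SD. INSR over IGF1R is lower in all Rho0 libraries (0.219 to 0.235 against 0.284 to 0.302), and the other 3 ratios are higher in all Rho0 libraries, IGFBP7 over IGFBP6 the most (1.17 to 1.76 against 0.458 to 0.540).

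The summed level of the 7 binding protein genes was 859 ± 74.4 CPM in parental and 878 ± 155 CPM in Rho0 libraries (SD, n = 4 each), and the lines overlapped. Within that sum the make-up shifted. IGFBP4 gave 73.6 ± 1.05% of the binding protein counts in parental and 70.0 ± 2.95% in Rho0 libraries (SD, n = 4 each). IGFBP6 went from 17.5 ± 0.316% to 12.2 ± 0.646%, and IGFBP7 from 8.78 ± 0.746% to 17.0 ± 2.81%. IGFBP3 reached only 0.738 ± 0.221% in Rho0 libraries, from 0.00278 ± 0.00322%. The gene with the largest fold change was therefore a small part of the binding protein counts, and IGFBP7 gained the most share.

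Levels of different genes are comparable only per transcript length, taken as the median over each gene's protein-coding transcripts in GENCODE 29 and given in CPM per kilobase. IGFBP4 stood first in both lines, at 288 ± 28.9 in parental and 281 ± 60.5 in Rho0 cells (SD, n = 4 each). IGFBP6 followed at 159 ± 11.3 and 114 ± 20.6, and IGFBP7 at 56.1 ± 1.77 and 109 ± 3.81. In Rho0 cells IGFBP6 and IGFBP7 did not differ beyond their spread, and with the longest transcript of each gene their order turned, to 91.1 and 102.6. Next came IGF2R at 14.8 ± 0.495 and 27.1 ± 1.67, IGF1R at 6.81 ± 0.247 and 10.3 ± 1.0, and INSR at 5.02 ± 0.281 and 5.87 ± 0.571. IGFBP3 at 6.41 ± 0.967 in Rho0 cells was within the spread of INSR per length, while in parental cells it was last among the 8 genes at 0.0252 ± 0.0292. IGFBP2 measured 0.806 ± 0.405 and 0.726 ± 0.156. With the longest transcripts, values in Rho0 cells were 17.5 for IGF2R, 9.94 for IGF1R, 3.09 for INSR, 2.58 for IGFBP3 and 0.403 for IGFBP2. The libraries of INSR and IGFBP3 still overlapped (2.65 to 3.32 and 2.00 to 2.81). Transcripts of the soluble carriers IGFBP4, IGFBP6 and IGFBP7 were thus more abundant per length than those of every receptor in both lines.

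Within the Rho0 group, libraries varied in a shared way. Relative to the Rho0 mean, replicate 1 was at 1.25 for IGFBP4 and 1.19 for IGFBP6 but at 0.866 for IGF1R, 0.930 for IGF2R and 0.857 for INSR. Replicate 4 was at 0.730 and 0.756 for the same binding proteins and at 1.08, 1.07 and 1.04 for the receptors. IGFBP7 stayed between 0.965 and 1.03 in all 4. The receptor transcripts are long (median lengths 11764.5 bases for IGF1R, 9084 for IGF2R and 4721 for INSR), and those of IGFBP4 and IGFBP6 are shorter (2200 and 944 bases). IGFBP7, which stayed steady, lay between IGFBP6 and IGFBP4 in length, at 1339 bases. Its GC content was 53.8%, against 62.5% for IGFBP4, 62.1% for IGFBP6 and 49.2% to 51.7% for the receptors. What set the shared variation was not tested. Over all genes tested, the median log2 fold change went from -0.02 for the genes with the shortest transcripts (75 to 870 bases) to 0.18 for those with the longest (3413.5 to 27174 bases), when genes were put in bins of equal size by length. The share called higher went from 25% to 36.8%. When each library was corrected for length and GC content of the transcripts, an alternative added after the data were seen, IGF1R was 0.39, IGF2R 0.69 and INSR 0.08, and IGFBP6 was -0.33 and IGFBP7 1.07 (log2 fold changes). All 5 calls were kept, with smaller values for the 2 receptors and IGFBP6.

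**Figure D3:**
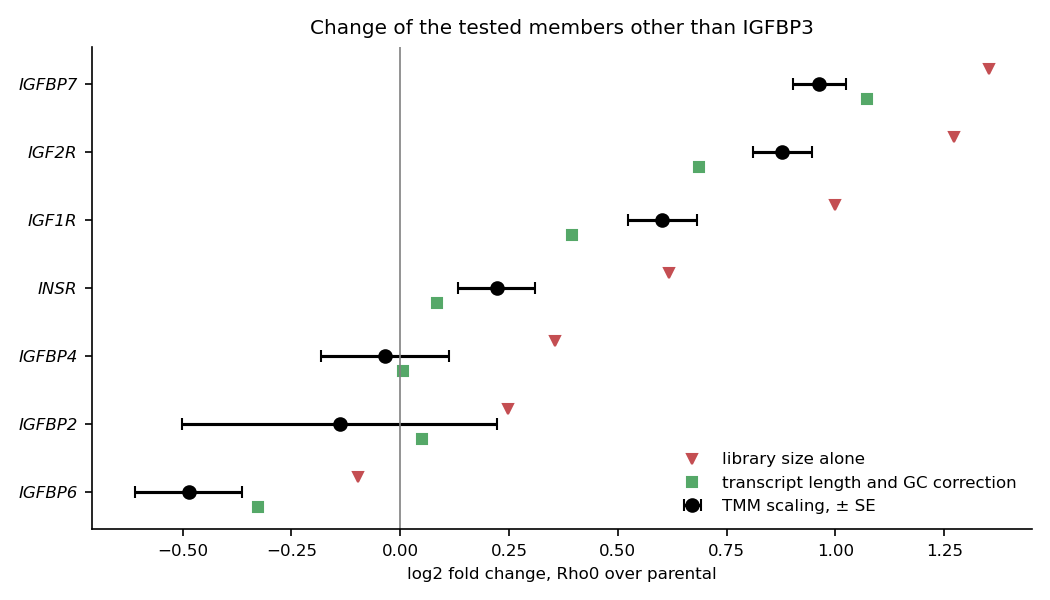
Log2 fold change, Rho0 over parental (horizontal axis), of the 7 tested genes other than IGFBP3, with TMM scaling (circles, bars ± SE), with library totals alone (triangles) and after correction for length and GC content (squares). IGFBP7, IGF2R and IGF1R lie above 0 in all 3 settings and IGFBP6 below 0, although its value with library totals alone is -0.10, and IGFBP4 turns from -0.03 to 0.36 with library totals alone.

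RefSeq (GRCh38.p14) gave a window of 250 bases upstream of a transcript start for 8 of the 10 genes, all but IGFBP1 and IGFBP7. Of these genes, 3 are shown 5′ to 3′ on the gene's strand: the receptor and the binding protein with the largest rise, and the binding protein with the highest level. Capitals mark CACGTG in IGF2R and TATAAA in IGFBP4, and the IGFBP3 window is printed without its last 2 bases, which are exonic in GENCODE 29.
IGF2R, chr6:159968832-159969081, plus strand: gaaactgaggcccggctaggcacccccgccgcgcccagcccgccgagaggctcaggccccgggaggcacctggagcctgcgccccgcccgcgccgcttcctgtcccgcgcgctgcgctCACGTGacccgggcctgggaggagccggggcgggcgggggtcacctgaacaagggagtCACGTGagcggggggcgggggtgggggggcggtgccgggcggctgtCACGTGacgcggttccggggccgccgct
IGFBP3, chr7:45921275-45921522, minus strand: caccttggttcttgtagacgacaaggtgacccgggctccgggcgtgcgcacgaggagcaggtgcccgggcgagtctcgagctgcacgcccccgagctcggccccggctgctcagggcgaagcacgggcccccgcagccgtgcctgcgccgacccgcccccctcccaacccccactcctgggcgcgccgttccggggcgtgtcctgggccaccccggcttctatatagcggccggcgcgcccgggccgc
IGFBP4, chr17:40443200-40443449, plus strand: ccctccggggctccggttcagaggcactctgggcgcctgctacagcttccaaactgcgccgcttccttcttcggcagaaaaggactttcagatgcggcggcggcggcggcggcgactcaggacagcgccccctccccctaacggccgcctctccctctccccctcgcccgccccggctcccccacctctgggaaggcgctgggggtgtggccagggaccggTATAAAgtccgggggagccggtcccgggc
Each of these windows was searched on both strands for 5 motifs. IGF2R held 3 copies of TCACGTGA, at 133, 75 and 29 bases upstream of the start, each of which contains a copy of the E-box CACGTG. TCACGTGA, the core of the element known to be bound by TFEB and related factors of lysosomal genes, occurs in 0.854% of 35116 windows of this length, and CACGTG in 6.34%. Windows with at least 3 copies of TCACGTGA belonged to 4 of 27305 genes, IGF2R among them. IGFBP4 held TATAAA at 29 bases upstream, where TATA boxes usually lie, a motif that 10.7% of windows hold at any position. The exact letters TATAAA were absent from the windows of IGFBP3, IGF1R, IGF2R and INSR. The IGFBP3 window holds TATATA near its end, letters that were not among the motifs searched. Absence of TATAAA there thus does not mean absence of a TATA box. The GC box GGGCGG, present in 42.6% of windows, was found in the windows of all 3 receptors and of IGFBP3 and IGFBP4. It was also found in IGFBP2 (86 and 49 bases upstream, in separate windows) and IGFBP6 (17 bases upstream, within exonic bases). Of the 8 genes with a window, only IGFBP5 lacked it. GTAAACA, a forkhead motif found in 2.98% of windows, occurred only in IGFBP6 among the members' windows, where it lies within the 231 bases that are exonic in GENCODE 29. CpG counts were 48 for IGF1R, 33 for IGF2R, 32 for IGFBP3, 28 for INSR and 24 for IGFBP4, above the median of 11 over all windows. They were 9 for IGFBP6, 8 for IGFBP5 and 7, 22 and 4 for the 3 windows of IGFBP2. No binding data exist in these files, and a match of letters is a description.

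The ligands were scarce in both lines. INS, the insulin gene, had 0 counts in all 8 libraries. IGF1 had too few counts for the test, at 0.201 ± 0.0662 CPM in parental and 0.336 ± 0.251 CPM in Rho0 cells (SD, n = 4 each). IGF2 measured 0.411 ± 0.144 and 0.550 ± 0.109 CPM and was not called (log2 fold change 0.43 with SE 0.30, adjusted p = 0.26 by edgeR). Its reads are uncertain, since the readthrough gene INS-IGF2 overlaps it. Each ligand was thus below 1 CPM in every library.

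Of 90 further genes of the IGF and insulin pathway in 7 lists, all fixed with earlier results of these data known, counts are read beside the 29.0% of all genes tested that were called higher and the 25.4% called lower. Among 5 tested genes of receptor relatives and processing, 0 were called higher, 2 lower and 3 not called (median log2 fold change -0.16, against 0.05 over all genes tested). PCSK7 and FURIN, proprotein convertases that cut precursors such as the IGF1R and INSR chains, went from 74.9 ± 2.48 to 60.3 ± 2.36 CPM and from 416 ± 35.4 to 336 ± 28.2 CPM (SD, n = 4 each). Both log2 fold changes were -0.31 (SE 0.06 and 0.09, edgeR adjusted p = 0.0017 and 0.011), but they turned to 0.079 and 0.085 with library totals alone, and PCSK7 was not called after the length and GC correction.

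Of 12 tested genes for IGFBP proteases, their inhibitors and complex partners, 7 were called higher, 2 lower and 3 not called (median 0.73), where 29.0% of all genes tested were called higher. PLG, among the 7, passed the low-count filter only through its Rho0 libraries (6 to 17 counts in parental libraries), where it was higher. Its lines overlapped (edgeR adjusted p = 0.048). PAPPA2, a metalloprotease that cuts IGFBP3 and IGFBP5, measured 6.64 to 8.40 CPM in parental and 39.2 to 61.0 CPM in Rho0 libraries (log2 fold change 2.73 with SE 0.14, adjusted p = 9.7e-08 by edgeR). STC2, stanniocalcin 2, an inhibitor of the PAPPA proteases, rose from 14.1 ± 1.11 to 59.1 ± 3.10 CPM (SD, n = 4 each), a log2 fold change of 2.07. HTRA1, a serine protease that cuts several binding proteins, rose from 18.4 ± 1.93 to 71.9 ± 3.98 CPM (log2 fold change 1.96). In the same list, named after their values were seen, the protease PAPPA rose by 0.68 (edgeR adjusted p = 0.0049) and its other stanniocalcin inhibitor STC1 fell by 1.01 (adjusted p = 4.3e-05) on the log2 scale. PAPPA measured 37.2 to 44.6 CPM in parental and 45.5 to 86.1 CPM in Rho0 libraries. Its lowest Rho0 value was in replicate 1 and its highest in replicate 4. Neither PAPPA nor STC1 was followed under the alternative settings. Both PAPPA proteases and 1 inhibitor thus rose while the other inhibitor fell.

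Of 19 tested receptor substrates, adaptors and brakes, 12 were called higher, 5 lower and 2 not called (median 0.40), beside 29.0% and 25.4% of all genes tested. Among the 12, IRS2 passed the filter on low counts only through its Rho0 libraries and had to differ. The lines overlapped for SH2B2 and PTPN11, also among the 12 and named after their values were seen (edgeR adjusted p = 0.026 and 0.048). ENPP1, a membrane enzyme known to bind INSR and restrain it, measured 1.75 to 2.58 CPM in parental and 17.4 to 25.6 CPM in Rho0 libraries (log2 fold change 3.31 with SE 0.16, adjusted p = 4.8e-08 by edgeR). IRS1, the main docking substrate of IGF1R and INSR, rose from 1.80 ± 0.390 to 7.62 ± 1.24 CPM (SD, n = 4 each), a log2 fold change of 2.07. The docking protein GAB1 fell from 36.1 ± 0.550 to 13.7 ± 2.86 CPM (log2 fold change -1.40). The list thus held both carriers and brakes of the signal among its higher genes.

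In the PI3K and AKT relay, which carries the signal onward, 10 of 26 tested genes were called higher, 6 lower and 10 not called (median 0.07, close to that of all genes). PIK3CD, a catalytic subunit best known from white blood cells, rose from 0.420 ± 0.0969 to 8.14 ± 0.688 CPM (SD, n = 4 each), with a log2 fold change of 4.26 (SE 0.17) and an edgeR adjusted p of 1.6e-08. Like IGFBP3, it passed the filter on low counts only through its Rho0 libraries and had to differ. The regulatory subunits PIK3R1 and PIK3R3 rose by 1.46 and 0.89 on the log2 scale. The blood marker sum was also higher in Rho0, as given above, but was led by LYZ (1.40 ± 0.225 and 5.10 ± 0.444 CPM), with CD3E and HBB at 0, and its part in this result was not tested.

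Further lists bear on IGF2 and IGF2R. Of 16 genes for mannose 6-phosphate tagging and sorting, 4 were called higher, 5 lower and 7 not called (median -0.05), near the shares of all genes tested. AP1B1 and AP1S1, subunits of the clathrin adaptor AP-1, fell from 287 ± 18.4 to 140 ± 17.7 CPM and from 104 ± 4.37 to 63.4 ± 10.7 CPM (SD, n = 4 each), by log2 fold changes of -1.03 and -0.72. GNPTG, a subunit of the enzyme that starts the mannose 6-phosphate tag, rose from 31.1 ± 1.5 to 54.8 ± 6.64 CPM (log2 fold change 0.82). Of 3 IGF2 mRNA-binding protein genes, 2 were called lower: IGF2BP1 at -0.60 and IGF2BP2 at -0.41, the latter not called with library totals alone.

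**Figure D4:**
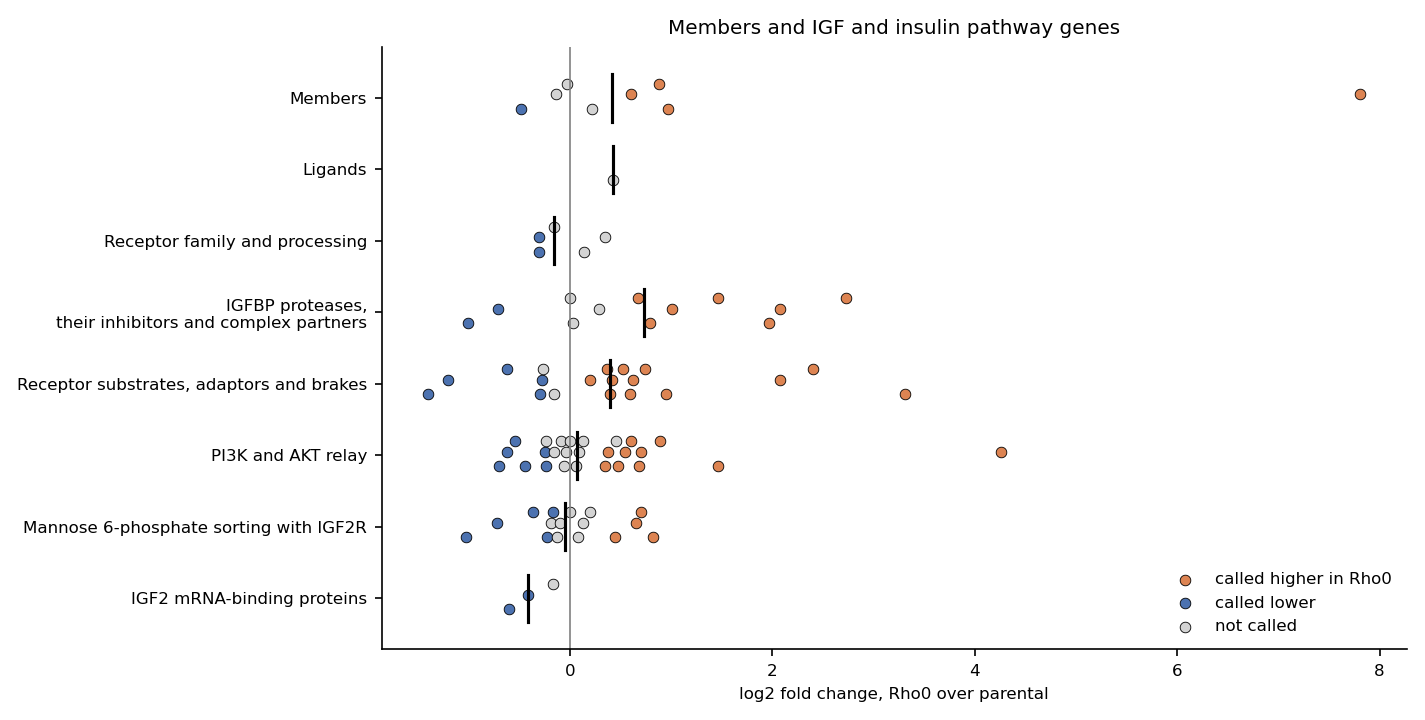
Log2 fold change, Rho0 over parental (horizontal axis), of each tested gene (1 point) in the 10 named genes and the 7 pathway lists, coloured by call at an adjusted p of 0.05, with the list's median as a vertical bar. The points right of 2 are IGFBP3 (7.81), PAPPA2, STC2, ENPP1, IRS1, PIK3CD and IRS2 (2.40, named after its value was seen and past the low-count filter only through Rho0), and the medians run from -0.41 to 0.73.

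Among 9165 protein-coding genes with at least 10 CPM in the higher line, those with the pattern most like IGFBP3 over the 8 libraries were ADGRL4, GLB1 and LPAR1 (Pearson r of log2 CPM 0.999, 0.999 and 0.998). The most like IGFBP6 were TRIP10, PDZD11 and CLPP (0.996 each). These values describe 8 points that fall into 2 groups and share their libraries' depth and scaling. Of the nearest protein-coding genes, TNS3, 1353280 bases beyond IGFBP3, had a log2 fold change of 0.62, SPRYD3 beside IGFBP6 -0.46 and NOA1 beside IGFBP7 0.59. Beside IGFBP4, which was not called, TNS4 was at -1.53 (0.702 and 0.261 CPM) and TOP2A at -0.42. RPL37A beside IGFBP2 was at 0.06, MAS1 beside IGF2R at 0.21 and ZNF557 beside INSR at 0.14. Of all genes tested 54.4% were called, and a link between neighbours was not tested.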

How the data were processed

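RNA was extracted with RNAzol and sequenced from strand-specific poly-A libraries, per the labels' protocols. Estimated counts per Ensembl gene and a table of normalized log2 values were deposited by the authors. Per the submitters' processing notes, the tools were kallisto, edgeR and limma and the build was GRCh38. The sources used here do not give the annotation release. Genes with at least 20 counts in every library were compared between the deposited tables. Of these 11402 genes, 97.8% had log2 values equal to the log2 of scaled counts plus 1 in every library, within a relative tolerance of 0.001.

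Rounded estimated counts went into edgeR 4.0.16 under R 4.3.3, using filterByExpr (minimum count 10), TMM scaling and the quasi-likelihood F-test, group being the only term. Benjamini-Hochberg adjustment covered all 15184 genes tested. The standard error is the log2 fold change divided by the square root of F. The biological coefficient of variation was 13.7%. The fit was tested on simulated data. As many genes were raised as lowered there, so that run cannot judge the choice of scaling. No pair of libraries agreed within sampling noise (lowest chi-square per degree of freedom 3.99). Lengths and coordinates are those of GENCODE 29. Floors of 3 counts and the 95% interval cover counting error only.

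The members and lists were chosen with earlier results of these data known. Named were all members and ligands, up to 3 called genes per list with the largest change and at least 5 CPM in the higher line, and for IGFBP3 and IGFBP6 the 3 genes with the most similar pattern. Among the 18 alternatives were DESeq2 size factors, library totals alone, TMM scaling with mitochondrially encoded genes left out, and 2 other filters. The rest were DESeq2 1.42.0, limma-voom and limma-trend (limma 3.58.1), a replicate block, leaving out each library, and a length and GC correction (mgcv 1.9.3).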

Additional observations from a re-analysis of the deposited data

Results flagged for a closer look

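In 15 groups of 4 libraries, the lowest and highest values of a gene were compared with the others of its line. Not every one of the 10 genes was covered in both lines. Chance alone sets a library apart in about 1 of 20 groups. IGFBP3 in Rho0 replicate 1 was far below the other Rho0 libraries at 4.83 CPM, the gap to the next library being 0.921 of the whole range. IGFBP6 in parental replicate 3 was far above the other parental libraries at 166 CPM, with a gap of 0.901 of the range.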

How the results depend on the processing

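With library totals alone, 8583 genes were called higher and 1540 lower, 0 of the 10 genes were called lower, and IGFBP4 (0.36), IGFBP2 (0.25, not called), PCSK7 (0.079) and FURIN (0.085) turned from lower to higher. The share of calls that were higher went from 53.3% to 84.8%. Under the 18 alternatives, IGFBP3, IGFBP7, IGF1R and IGF2R were called in the same direction in all 18 and IGFBP6 in 17. INSR was called in 3: library totals alone, the filter of 50 counts in 4 libraries (0.25, adjusted p = 0.033) and without Rho0 replicate 1. IGFBP4 was called in 1, and IGFBP2 in 0 of the 16 in which it was tested, with edgeR, DESeq2 or limma. The causes were not tested. With the replicate block, 4215 genes were called higher and 3802 lower, and the members' calls were 4 and 1 as before. Same-numbered libraries had correlations of -0.135 to 0.155 in their deviations from the group means, so the numbers were not taken as pairs. With 4 libraries a line and 0 to 2 counts at IGFBP1, IGFBP5 and parental IGFBP3, smaller differences in these genes were not detectable at this depth.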
